A study of Arabidopsis thaliana with 4 samples.

Results

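Where noncoding RNAs of RNA polymerase V (Pol V) stop at their 3′ ends was compared between the rrp6L1-2 mutant and wild-type Col-0 of Arabidopsis thaliana, using 2 of the 4 libraries of the series and all 7 locus names in the tables. Members were all reads of these 2 libraries, 89304 from rrp6L1-2 and 141489 from Col-0, after exact repeats of a line had been dropped. Each library came from total RNA of above-ground tissue of 2.5-week plants in the Col-0 ecotype, grown with 16 hours of light and 8 hours of dark. The rrp6L1-2 plants carry a mutant allele of RRP6L1 and the Col-0 plants carry none. The nrpe1-11 mutant, which lacks a working largest subunit of Pol V, served as the control. The rrp6L1-1 library was not used here. The labels do not give the number of plants or the molecular lesion behind rrp6L1-2. RRP6L1 RNA itself was not measured, so the labels could not be checked against it.

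Pol V is a plant polymerase whose transcripts act as scaffolds: small RNAs bound to an ARGONAUTE protein pair with them, and a DNA methyltransferase is brought to the same stretch of DNA. RRP6L1 is a plant relative of RRP6, an exonuclease that shortens RNA from its 3′ end and works with the nuclear exosome. The comparison asked whether Pol V transcripts ended elsewhere when this relative was mutated. In 3′ RACE, RNA is given a poly(A) tail, reverse transcribed from oligo(dT), and enriched in nested PCR rounds with locus primers, so each read reports where an RNA ended.

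Each genotype was 1 library, so every difference below is between single libraries, with no replicates and no test. Intervals are 95% intervals (exact Clopper-Pearson for shares, order statistics for percentiles). They cover counting error only, and PCR copies are not independent molecules. Depth per locus ran from 8539 to 28398 ends in Col-0 and from 6999 to 18209 in rrp6L1-2. In nrpe1-11, 248926 reads fell at IGN23 and 14 at the other loci. Length is the deposited transcript length, counted in nt from a fixed origin at each locus, and an end position is 1 such length. The labels do not explain this origin, so a length need not be that of a whole transcript. A position was called frequent when it held at least 5% of the ends of a locus in either library. A frequent position was called gained when its rrp6L1-2 share was at least 5 times its Col-0 share, lost in the opposite case, and kept otherwise, with a count under 3 reads set to 3. These names describe sizes, not tests.

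None of the 7 stretches of ends overlapped an annotated gene or pseudogene in TAIR10.1. On chromosome 4, IGN5b (chr4:2323304-2323495, plus strand) and IGN5t (chr4:2322945-2323136, minus strand) lie between the lncRNA gene AT4G04905 and APR1, an enzyme gene of sulfate assimilation. IGN23 (chr4:2577995-2578176, plus strand) lies 21 nt from the protein-coding gene AT4G05030. IGN25 (chr4:5459179-5459404, plus strand) lies 1994 nt upstream of AT4G08580. IGN35 (chr4:6549083-6549317, plus strand) lies 205 nt from AT4G10600. IGN29 (chr2:15314845-15315086, plus strand) lies 38 nt from DML1, the gene of a DNA demethylase. IGN17 (chr1:13585662-13585865, plus strand) lies between the pseudogenes AT1G36200 and AT1G36210.

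The sequences around gained ends that held at least 10% of the rrp6L1-2 ends, joined with gained ends within 5 nt, are shown because they carry the change and let the bases before and after each end be read. Each runs 5′ to 3′ on the transcribed strand, from 20 bases before the end to 10 bases after it, in TAIR10.1, and the capitals mark the bases at which transcripts ended.
IGN17 gained at 43 nt (chr1:13585684-13585714): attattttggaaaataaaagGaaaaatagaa
IGN17 gained at 32 and 37 nt (chr1:13585673-13585708): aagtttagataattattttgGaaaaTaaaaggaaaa
IGN5b gained at 43 and 44 nt (chr4:2323326-2323357): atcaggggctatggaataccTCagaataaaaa
IGN5t gained at 32 and 34 nt (chr4:2323093-2323125, minus strand): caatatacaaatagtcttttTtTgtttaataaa
IGN25 gained at 86 nt (chr4:5459244-5459274): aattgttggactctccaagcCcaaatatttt

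The lost ends that had held at least 10% of the Col-0 reads in at least 1 position are shown in the same way, so that they can be set against the gained ones of the same locus.
IGN17 lost at 1 nt (chr1:13585642-13585672): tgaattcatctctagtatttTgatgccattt
IGN17 lost at 17 nt (chr1:13585658-13585688): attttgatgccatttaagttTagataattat
IGN17 lost at 30 nt (chr1:13585671-13585701): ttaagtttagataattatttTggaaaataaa
IGN17 lost at 102 and 104 nt (chr1:13585743-13585775): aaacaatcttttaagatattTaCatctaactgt
IGN5b lost at 25 nt (chr4:2323308-2323338): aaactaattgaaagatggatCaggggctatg
IGN5b lost at 73 nt (chr4:2323356-2323386): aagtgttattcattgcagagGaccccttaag
IGN23 lost at 97 nt (chr4:2578071-2578101): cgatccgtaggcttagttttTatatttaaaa
IGN25 lost at 6 nt (chr4:5459164-5459194): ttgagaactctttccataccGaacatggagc
IGN25 lost at 48, 50 and 52 nt (chr4:5459206-5459240): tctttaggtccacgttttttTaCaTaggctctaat

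Across the 7 loci, the rrp6L1-2 library ended its Pol V transcripts at a partly different set of positions. Of 65 frequent positions, 14 were gained (21.5%), 19 were lost (29.2%) and 32 were kept, so 50.8% differed at least 5-fold. Of the 46 positions frequent in Col-0, 41.3% were lost, and of the 37 frequent in rrp6L1-2, 37.8% were gained. Only 18 positions were frequent in both libraries. The turnover was uneven: it covered 9 of 9 frequent positions at IGN17, 8 of 10 at IGN5b, 5 of 8 at IGN5t and 6 of 11 at IGN25, but 3 of 11 at IGN23, 2 of 10 at IGN35 and 0 of 6 at IGN29. Gained and lost positions occurred together at 6 loci, and IGN29 had neither. At IGN23 this rested on 1 gained position, whose interval of 4.76% to 5.45% includes the 5% threshold. The counts depended on the threshold: at 10% of the ends, 5 positions were gained and 10 lost, and at 2%, 29 were gained and 25 lost, so which class was larger depended on it too.

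**Figure D1:**
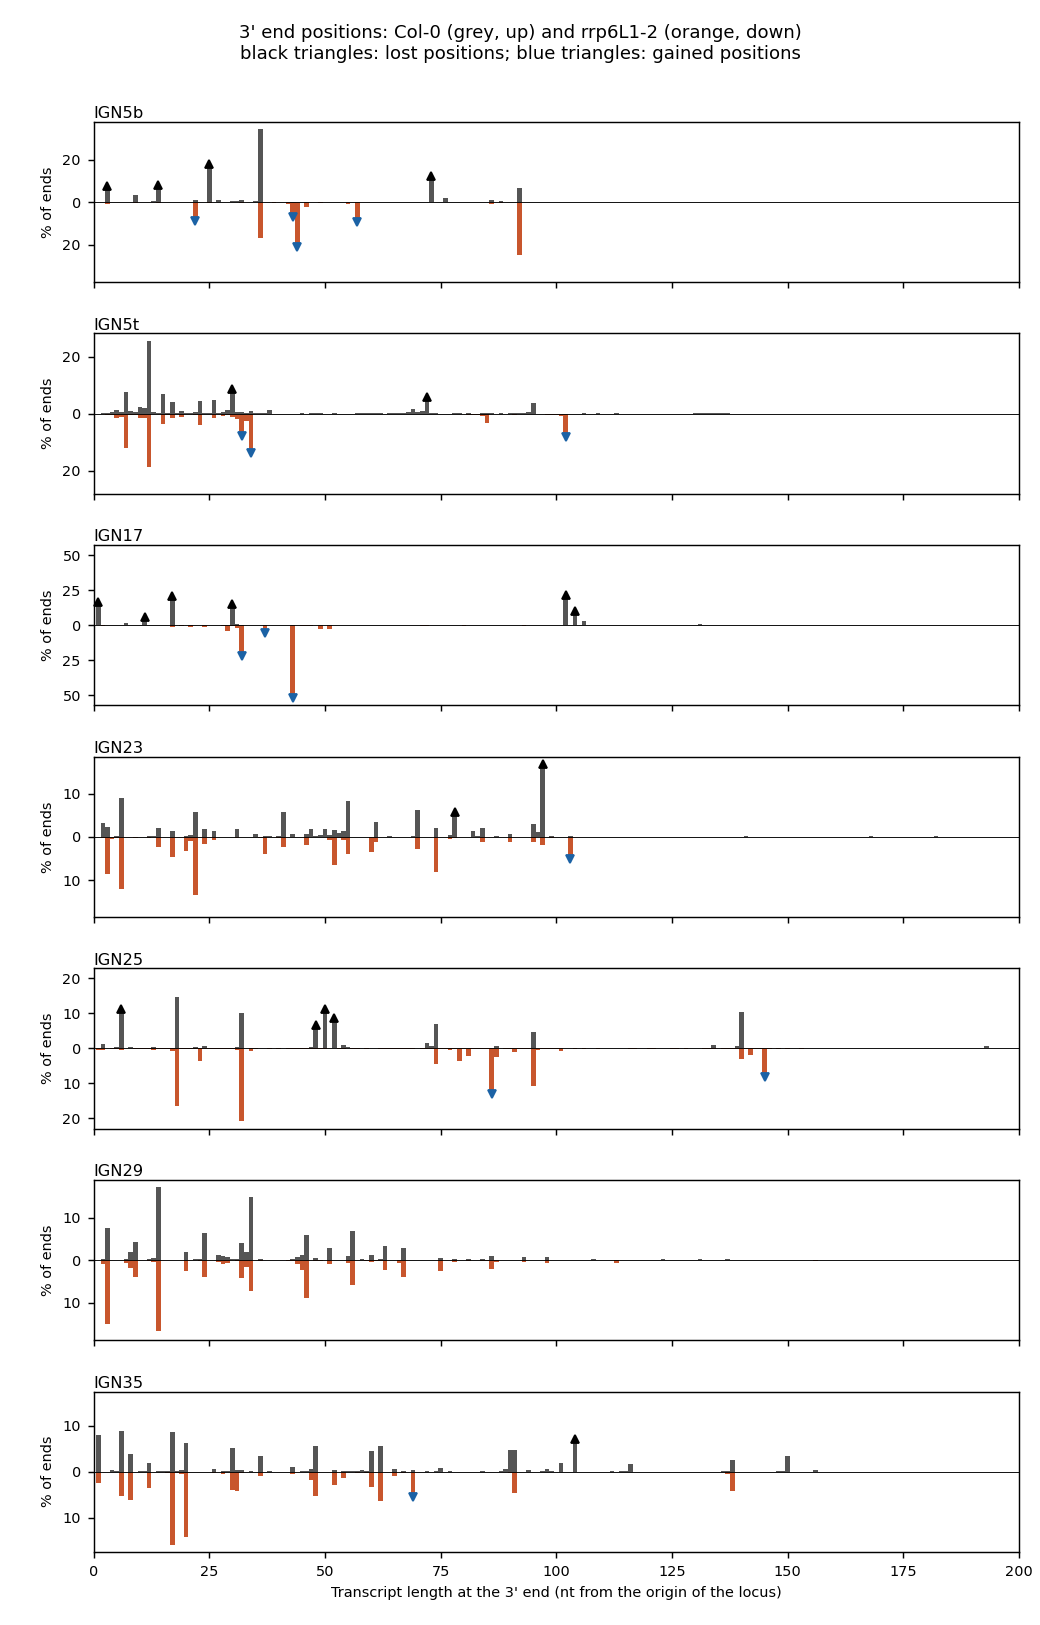
Share of the ends of each locus (y axis, % of ends, Col-0 upward in grey and rrp6L1-2 downward in orange, each panel with its own scale) at each transcript length (x axis, nt, drawn to 200 nt). Triangles mark the 19 lost and 14 gained positions; IGN17 shares no tall bar between the libraries, whereas the tall bars of IGN29 face each other.

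The share of reads that these positions held shows how much of each profile was replaced. At IGN17 the gained positions held 79.2% of the rrp6L1-2 ends (78.6% to 79.8%) and 0.250% of the Col-0 ends, while the lost ones held 90.3% in Col-0 and 2.17% in rrp6L1-2. At IGN5b the gained positions held 46.5% in rrp6L1-2 against 1.19% in Col-0, and the lost ones 45.8% in Col-0 against 1.97%. IGN5t and IGN25 were intermediate, with 30.1% and 21.1% of the rrp6L1-2 ends at gained positions. Lost positions held 14.5% of the Col-0 ends at IGN5t and 37.7% at IGN25. The gained position of IGN23 held 5.10% and that of IGN35 5.59% of the rrp6L1-2 ends.

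The median length was longer in rrp6L1-2 by at least 10 nt at 2 loci (IGN17 and IGN25) and shorter by at least 10 nt at 2 (IGN23 and IGN35), with intervals that did not overlap. At the 10th and the 25th percentile, 3 of 7 loci were longer by at least 10 nt and 0 were shorter by as much. At the 75th percentile, 2 were longer and 3 shorter, and at the 90th, 2 were longer and 2 shorter. The median of the 7 differences was 2 nt at the 10th percentile, 0 nt at the 25th, 6 nt at the 50th, -4 nt at the 75th and 2 nt at the 90th. The widest range was at the 75th percentile, from -59 nt at IGN17 to 55 nt at IGN5b.

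**Figure D2:**
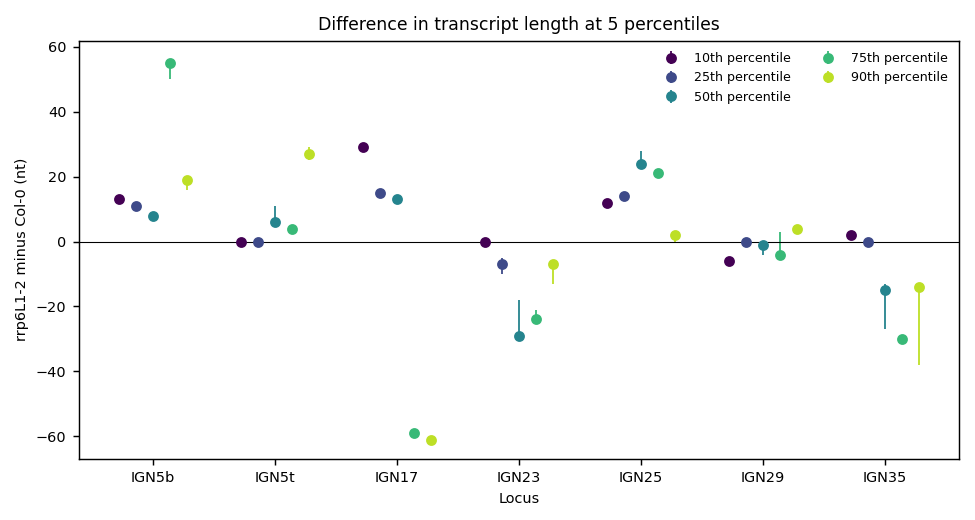
Difference in transcript length between rrp6L1-2 and Col-0 (y axis, nt, positive where rrp6L1-2 was longer) at the 10th, 25th, 50th, 75th and 90th percentile of each locus (x axis). Bars run between the extremes that the 2 counting intervals allow; the differences of IGN17 change from 29 nt at the 10th to -61 nt at the 90th percentile.

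Ends within 10 nt of the origin were less frequent in rrp6L1-2 at 4 loci and more frequent at 3. They fell short of Col-0 most at IGN17, with 0.428% (0.339% to 0.534%) against 18.2% (17.7% to 18.7%). At IGN25 they were 1.50% against 13.8%, at IGN5b 1.47% against 11.2%, and at IGN35 14.4% against 21.1%. The 3 loci with more of them in rrp6L1-2 were IGN29 (22.6% against 14.3%), IGN23 (22.2% against 14.7%) and IGN5t (17.9% against 14.2%). Ends beyond 100 nt were more frequent in rrp6L1-2 at IGN5t (9.39% against 2.48%) and IGN23 (5.33% against 1.12%). They were less frequent at IGN17 (0.159% against 36.9%), IGN35 (5.24% against 18.5%) and IGN29 (1.30% against 2.43%), and intervals overlapped at IGN5b and IGN25.

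At IGN17, ends that were spread over short and long positions in Col-0 lay in a narrow middle zone in rrp6L1-2. The range from the 10th to the 90th percentile was 1 to 104 nt in Col-0 and 30 to 43 nt in rrp6L1-2. A single position, 43 nt (13585704), took 9453 reads in rrp6L1-2, a share of 51.9% (51.2% to 52.6%), and 7 reads in Col-0, a share of 0.0254%. The other gained positions were 32 nt, with 21.8% against 0.192%, and 37 nt, with 5.42% against 0.0326%. All 3 gained ends lie in the same A-rich stretch, each followed by a run of 4 or 5 genomic A bases.

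The lost IGN17 positions lay on both sides of that zone, apart from 30 nt. That lost end lay at the lower edge of the zone, 2 nt before the gained end at 32 nt. At 1 nt stood 16.6% of the Col-0 ends and 0.0879% of the rrp6L1-2 ends, at 11 nt 5.59% and 0.0659%, at 17 nt 21.1% and 1.42%, and at 30 nt 15.3% and 0.604%. The positions at 102 nt and 104 nt, with 21.4% and 10.2% in Col-0, had 0 reads among the 18209 of rrp6L1-2, which allows a share of up to 0.0203% by the exact interval. The lower percentiles of IGN17 were therefore longer in rrp6L1-2 and the upper ones shorter. The 25th percentile was 17 nt in Col-0 and 32 nt in rrp6L1-2, the 75th 102 nt and 43 nt. The median difference of 13 nt turned to -1 nt when positions preceding a genomic A were left out. That setting removed 90.6% of the rrp6L1-2 ends, with all 3 gained positions, and 61.9% of the Col-0 ends. The difference was -19 nt when every position used more than once had the same weight, with bounds of -51 and 15 nt that include 0.

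IGN5b ended further from its origin in rrp6L1-2 at all 5 percentiles. The difference was 13 nt at the 10th percentile (9 against 22 nt), 11 nt at the 25th, 8 nt at the 50th, 55 nt at the 75th (36 against 91 nt) and 19 nt at the 90th. By 36 nt, 77.1% of the Col-0 ends had been reached and 30.2% of the rrp6L1-2 ends. The gained positions were 22, 43, 44 and 57 nt. At 44 nt (2323347) stood 21.1% of the rrp6L1-2 ends (20.4% to 21.9%) and 0.0634% of the Col-0 ends, and at 22 nt 9.07% against 1.12%.

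The end at 57 nt of IGN5b held 1103 reads in rrp6L1-2, or 9.49%, and 0 in Col-0, where the exact interval allows up to 0.0167%. The end at 43 nt, next to the gained end at 44 nt, held 792 reads against 1. Lost positions were 3 nt (7.73% in Col-0 and 0.851% in rrp6L1-2), 14 nt (7.96% and 0.447%), 25 nt (18.0% and 0.671%) and 73 nt (12.1%, and 0 reads in rrp6L1-2). The remaining frequent positions of IGN5b changed rank. The end at 36 nt had led in Col-0 with 34.3% and held 16.7% in rrp6L1-2. The end at 92 nt held 6.73% in Col-0 and led in rrp6L1-2 with 24.9%. Without positions before a genomic A, the median difference at IGN5b was 0 nt.

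On the opposite strand, the IGN5t profiles had the same 10th and 25th percentiles and differed in the shares of their leading ends and in their upper part. The 10th and 25th percentiles were 7 and 12 nt in both libraries, and the 90th was 72 nt in Col-0 and 99 nt in rrp6L1-2. The position at 12 nt led in both, with 25.5% (24.6% to 26.5%) in Col-0 and 18.7% (17.8% to 19.7%) in rrp6L1-2, and 7 nt held 7.66% and 11.9%. Gained positions were 34 nt (13.9% against 0.820%), 102 nt (8.36%, from 585 reads, against 2 reads) and 32 nt (7.87% against 0.492%). The IGN5t median was 6 nt longer in rrp6L1-2. The difference was -22 nt when every position used more than once had the same weight, with bounds of -42 and 15 nt that include 0. Lost positions were 30 nt (8.72% in Col-0 and 1.24% in rrp6L1-2) and 72 nt (5.74% and 0 reads). The gained ends at 32 and 34 nt of IGN5t lie 2 and 4 nt beyond the lost end at 30 nt.

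At IGN25 the middle of the profile was replaced, while the main peaks below it, apart from 6 nt, were kept. By 35 nt the cumulative share was 41.7% in Col-0 and 45.3% in rrp6L1-2, and by 55 nt it was 70.7% in Col-0 and 45.6% in rrp6L1-2. The zone between, with the lost ends at 48, 50 and 52 nt, thus held few rrp6L1-2 ends: 4 reads at 48 nt, 2 at 50 nt and 0 at 52 nt, against 1870, 3191 and 2460 in Col-0. The ends at 18 and 32 nt held at least 10% in both libraries, 14.8% and 10.2% in Col-0 and 16.5% and 20.8% in rrp6L1-2. Beyond the emptied zone, rrp6L1-2 gained 86 nt (13.0% against 0.102%) and 145 nt (8.17% against 0.0176%), and 95 nt held 10.8% against 4.76%.

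The lost end at 6 nt of IGN25 held 11.2% in Col-0 and 0.390% in rrp6L1-2. Its 25th, 50th and 75th percentiles were 14, 24 and 21 nt longer in rrp6L1-2, whereas the intervals of the 90th overlapped (140 and 142 nt). The IGN25 median lies at the edge of the emptied zone: with only reads of the highest mapping quality, which were 77.6% of its Col-0 and 76.4% of its rrp6L1-2 reads, the difference of 24 nt turned to -16 nt. The gained and lost classes did not rest on the median.

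**Figure D3:**
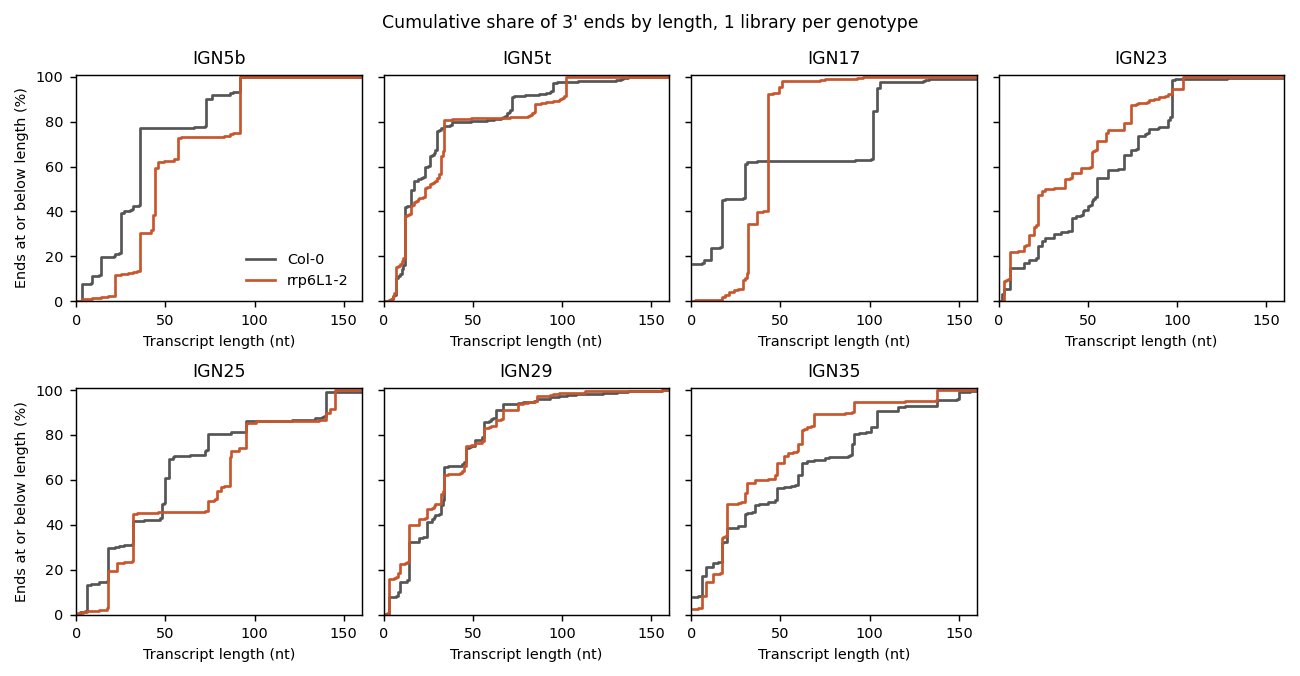
Cumulative share of the ends (y axis, %) up to each transcript length (x axis, nt, drawn to 160 nt) at each locus in Col-0 (grey) and rrp6L1-2 (orange), 1 library each. The curves of IGN17 cross, those of IGN5b lie apart with 77.1% against 30.2% reached by 36 nt, and those of IGN29 run close together.

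IGN23 and IGN35 were the loci with shorter medians, and most of their frequent positions were kept. The IGN23 median was 55 nt in Col-0, where both bounds of its interval were 55 nt. In rrp6L1-2 it was 26 nt, with an interval of 26 to 37 nt. Its 75th percentile was 84 nt in Col-0 and 60 nt in rrp6L1-2. By 37 nt, 30.9% of the Col-0 ends and 54.5% of the rrp6L1-2 ends had been reached. Lost were 97 nt (16.8% in Col-0 and 1.82% in rrp6L1-2) and 78 nt (5.65% and 0.259%). Gained was 103 nt, with 5.10% (4.76% to 5.45%) in rrp6L1-2 against 0.201%. At 22 nt stood 13.5% of the rrp6L1-2 ends against 5.74%, and at 3 nt 8.66% against 2.39%, differences under 5-fold. At IGN23 the median difference shrank to 0 nt when positions preceding a genomic A were left out. It was -1 nt when every position used more than once had the same weight.

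IGN23 was the locus with reads in the control without Pol V. The ends of 36 to 46 nt, which made up 99.5% of the nrpe1-11 reads there, held 7.82% in Col-0 (7.47% to 8.19%) and 8.81% in rrp6L1-2 (8.37% to 9.26%). Within this window the ends differed. At 41 nt stood 5.78% of the Col-0 ends and 2.39% of the rrp6L1-2 ends, but only 0.117% of the nrpe1-11 ends. At 37 nt stood 0.137% of the Col-0 ends and 3.99% of the rrp6L1-2 ends, and at 46 nt 0.702% and 1.96%. The nrpe1-11 shares at 37 and 46 nt are not given here. The gained and lost positions of IGN23 had 0 of the 248926 nrpe1-11 reads each. The part of reads made without Pol V in the rrp6L1-2 profile was not tested.

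At IGN35 the median was 43 nt in Col-0, with an interval of 43 to 47 nt. It was 28 nt in rrp6L1-2, with an interval of 20 to 30 nt. The 75th percentile was 90 nt in Col-0 and 60 nt in rrp6L1-2. The 25th percentile was 17 nt in both. The 8 kept positions held 51.4% of the Col-0 and 59.8% of the rrp6L1-2 ends, and 17 and 20 nt took the largest gains among them, to 15.8% from 8.67% and to 14.3% from 6.16%. Gained was 69 nt (5.59% against 0.292%), and lost was 104 nt (7.02% in Col-0 and 0 reads in rrp6L1-2). Under the alternatives tried, the median difference at IGN35 lay between -10 and -44 nt. When every position used more than once had the same weight it was -17 nt, with bounds of -50 and 6 nt that include 0.

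IGN29, beside DML1, was the locus whose profile differed least. Its 6 frequent positions were all kept and held 58.8% of the Col-0 ends (58.1% to 59.5%) and 57.8% of the rrp6L1-2 ends (56.7% to 58.8%), shares whose intervals overlapped. The 10th percentile was 9 nt in Col-0 and 3 nt in rrp6L1-2, and the other percentiles differed by at most 4 nt. The leading end at 14 nt held 17.2% and 16.6%, again with overlapping intervals. At 3 nt the share was 15.1% (14.4% to 15.9%) in rrp6L1-2 and 7.60% (7.22% to 7.99%) in Col-0, and at 34 nt it was 7.17% and 14.9%, the largest gain and loss among its frequent positions.

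The ends were drawn together on fewer positions in rrp6L1-2 at some loci and not at others. The 3 most frequent positions of each library held a larger share in rrp6L1-2 at 4 loci and a smaller one at 1, and the intervals overlapped at IGN23 and IGN29. At these loci the intervals separated under some alternatives: the difference was 15.0 percentage points at IGN23 without positions before a genomic A and -3.15 at IGN29 without lengths of 1 to 10 nt. The share was 79.2% (78.6% to 79.8%) against 59.2% (58.6% to 59.8%) at IGN17, 50.3% (49.4% to 51.1%) against 37.2% (36.7% to 37.8%) at IGN25 and 36.5% (35.7% to 37.3%) against 25.4% (24.6% to 26.1%) at IGN35. At IGN5t it was 44.4% against 41.9%, and at IGN5b 62.7% against 64.4%, small differences that turned with bins of 3 nt. With the 10 most frequent positions, the difference turned to -2.26 percentage points at IGN17 and to -0.282 at IGN25. At IGN17 it was -12.9 without positions before a genomic A, a setting that removed all 3 gained positions there. By the single most frequent position, 3 loci were more and 3 less concentrated in rrp6L1-2. The same position led in both libraries at 2 loci, IGN5t and IGN29. At IGN17 none of the 3 leading positions was shared.

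The effective number of positions, the number of equally used positions that would give the same concentration, was 3.09 in rrp6L1-2 and 6.40 in Col-0 at IGN17. It was 13.5 against 19.5 at IGN35 and 8.86 against 11.3 at IGN25, and higher in rrp6L1-2 at IGN5b (6.36 against 5.46) and IGN5t (11.3 against 10.4). IGN23 (15.4 in both) and IGN29 (12.8 in both) had about the same number. Thinned to the rrp6L1-2 depth, Col-0 would have used more distinct positions at 7 of 7 loci, from 71.8 against 70 at IGN5b to 133 against 91 at IGN35. Unthinned, Col-0 used 81 and 134 positions at these loci.

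**Figure D4:**
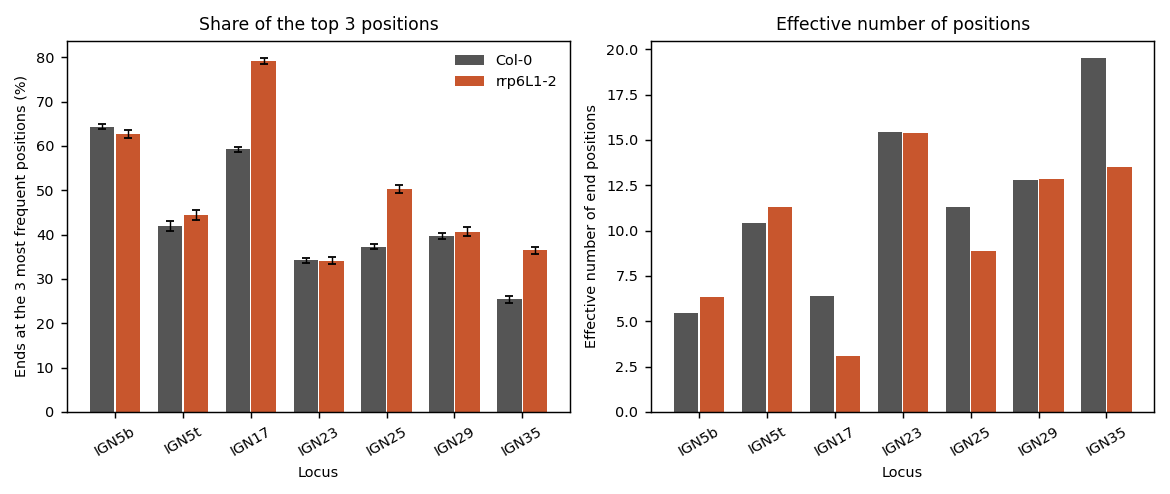
Left, share of ends (y axis, %) at the 3 most frequent positions of each library by locus (x axis), with exact 95% counting intervals as bars. Right, effective number of end positions; IGN17 has 3.09 in rrp6L1-2 and 6.40 in Col-0, and IGN23 and IGN29 have nearly equal bars.

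The share of ends in common was also computed with neighbouring lengths pooled in fixed bins. Position by position, the libraries had between 4.78% (IGN17) and 79.0% (IGN29) of their ends in common, with a median of 48.3% over the 7 loci. In bins of 10 nt the median was 59.4%, and in bins of 20 nt 71.6%. At IGN5t the share grew from 53.5% to 78.6% between bins of 1 and 20 nt, and at IGN23 from 48.3% to 71.6%. At IGN17 it reached 20.7% and at IGN5b 39.2% in bins of 20 nt. These shares do not measure distance, because nearby ends can fall in different bins, such as 36 and 44 nt at IGN5b.

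**Figure D5:**
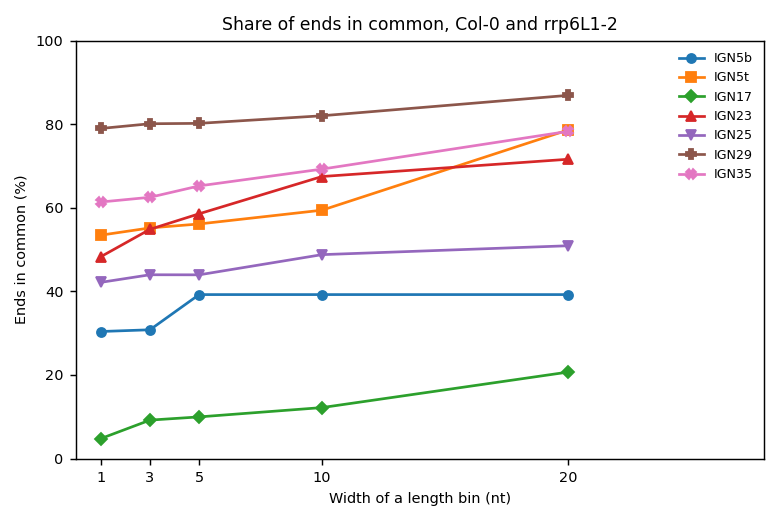
Share of ends that Col-0 and rrp6L1-2 had in common (y axis, %, the sum over bins of the smaller share) at each locus against the width of a length bin (x axis, nt, 1 to 20). IGN29 lies highest at each width and IGN17 lowest.

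Most gained and lost ends were narrow. In rrp6L1-2, a gained position held a median of 89.7% of the reads within 2 nt on either side of it (range 23.5% to 99.3%), and in Col-0 a lost position held a median of 91.7% (29.7% to 99.6%). The share was over 80% at 10 of the 14 gained and 11 of the 19 lost positions. Narrow ends were not particular to these classes, as kept ends ranged widely too. The kept end at 14 nt of IGN29 held 95.1% of such reads in Col-0 and 95.7% in rrp6L1-2. The kept end at 8 nt of IGN35 held 29.7% and 53.0%. Of the 14 gained positions, 5 lay within 5 nt of a position frequent in Col-0, and of the 19 lost ones, 4 lay within 5 nt of a position frequent in rrp6L1-2. Lengths overlapped, from 22 to 145 nt with a median of 43.5 nt for gained ends and from 1 to 104 nt with a median of 48 nt for lost ends. In the other library, 7 gained and 10 lost positions held under 0.1% of the ends, and 1 gained and 6 lost positions had 0 reads.

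The genomic base at the end was A at 0 of the 65 frequent positions, while A made up 33.6% of the 870 positions in these stretches. Because poly(A) was added to the RNA, a genomic A at the very end of a transcript cannot be told from the tail. How tails were removed from the reads is not given in the sources used here, and its part in these counts was not tested. The next genomic base was A after 8 of 14 gained ends (57.1%), 15 of 19 lost ends (78.9%) and 28 of 32 kept ends (87.5%), against 33.7% of all positions. The 6 gained ends without a following A were 43 and 57 nt at IGN5b, 32 and 34 nt at IGN5t, 86 nt at IGN25 and 69 nt at IGN35. Counted over reads, the share of ends before an A was 54.8% in rrp6L1-2 and 87.3% in Col-0 at IGN5b and 63.1% and 86.0% at IGN25, but 90.6% and 61.9% at IGN17. At IGN29 (76.7% and 79.3%) and IGN35 (79.5% and 79.9%) the libraries were close.

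Less used positions turned over too. Among the 86 positions that held 1% to under 5% of a locus in the library where they were more frequent, 21 were higher in rrp6L1-2 by at least 5-fold (24.4%) and 20 were lower (23.3%). IGN29 again had little of it, with 1 higher and 0 lower among 14 such positions. At IGN25, 5 of 8 were higher in rrp6L1-2 and 1 was lower, and the 8 together made up 15.2% of the rrp6L1-2 profile and 3.85% of that of Col-0.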

How the data were processed

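Total RNA was tailed with poly(A) polymerase, reverse transcribed from oligo(dT) and amplified by nested PCR, and up to 1.2 µg of pooled products per genotype was sequenced, per the labels' protocols. The authors deposited 1 line per read with a mapping quality score (41 to 44), a strand, a 3′ end position and a transcript length in nt. Bowtie2, SAMtools, bedtools, cutadapt 1.9.1, bcl2fastq 2.16.0.10 and the build TAIR10 are listed, without roles, per the submitters' processing notes. In Col-0, 27611 repeated lines, all at IGN17, were dropped. Length differed from the coordinate by a constant at every locus, and the deposited strand was opposite to the direction in which length grows. Bases and genes came from NCBI's copy TAIR10.1. The loci, lists and thresholds were chosen with earlier results of these data known. Named within a locus were gained, lost and leading positions, those with the largest gain and loss, and those with at least 10% in both libraries, with some others chosen after their values were seen. Percentiles, shares and classes were computed with Python 3.11.15, pandas 2.3.3, numpy 2.4.6 and scipy 1.17.1, and plots drawn with matplotlib 3.10.9, after the steps had been tested on simulated data. Alternatives changed repeats, bin width, thresholds, the weight of positions, tail-adjacent and short ends, and mapping quality.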

Additional observations from a re-analysis of the deposited data

How the results depend on the processing

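Counting lines as deposited could change no count, because each of the 27611 Col-0 reads at IGN17 had been deposited on exactly 2 lines. Of the 50 recounts, 34 stayed within 1.5 times the reported value, and 6 of these 34 came from that setting. For gained positions (14 reported), a 2% threshold gave 29, a 10% threshold 5, and a 2-fold rule 22. For lost positions (19 reported) the 2% threshold gave 25 and the 10% threshold 10. Loci with a longer median (2 reported) were 1 without positions before a genomic A, 1 with the highest mapping quality only, 1 at 20 nt in place of 10 nt, and 0 with distinct positions. In that last setting each position used more than once had the same weight. Loci with a shorter median (2 reported) were 1 without positions before a genomic A, 1 without lengths of 1 to 10 nt, 1 without each library's leading position, 1 at 20 nt, and 0 with distinct positions. Less concentrated loci (1 reported) were 0 in bins of 3 nt, 2 without lengths of 1 to 10 nt, and 3 by the single most frequent position. More concentrated loci (4 reported) ranged from 3, as by the single most frequent position, to 6 without each library's leading position. The median difference turned at IGN17 to -1 nt without positions before a genomic A and to -19 nt with distinct positions, and at IGN25 to -16 nt with the highest mapping quality only. Smaller median differences turned too, at IGN5t from 6 to -22 nt with distinct positions and at IGN29 from -1 to 1 nt without positions before a genomic A. With distinct positions, the bounds at IGN17 and at IGN5t include 0. Leaving out positions before a genomic A removed 90.6% of the rrp6L1-2 ends and 61.9% of the Col-0 ends at IGN17. The difference in the share of the leading positions turned at IGN5b to 4.23 percentage points in bins of 3 nt, 17.9 without positions before a genomic A and 5.11 without the most frequent position. It turned at IGN17 to -12.9 without positions before a genomic A, -2.61 without the most frequent position and -2.26 with 10 positions in place of 3. It turned at IGN5t to -0.962 in bins of 3 nt and -6.82 with 1 position in place of 3, and at IGN25 to -0.282 with 10 positions. At IGN23 and IGN29, whose intervals overlapped, the sign varied as well. IGN23 reached 15.0 (12.2 to 17.9) without positions before a genomic A, 4.80 without the leading position, 2.83 with 10 positions and 2.58 in bins of 3 nt, and IGN29 -3.15 (-5.08 to -1.21) without lengths of 1 to 10 nt. The cause of these turns was not tested. No paired analysis was possible because each genotype had 1 library. For the same reason no library could be left out, and differences between single PCR pools and between genotypes cannot be told apart. Shares under about 0.03% rest on a handful of reads.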
